A study of Mus musculus with 8 samples.

Results

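The response of 3T3-L1 cells carrying an shRNA against Brf1 (shBrf1) to 2 days of adipogenic induction was taken as the ratio of the shBrf1 day 2 library to the shBrf1 day 0 library, gene by gene. All 31252 genes of the deposited tables were joined by name across the libraries: 16939 had a count in either shBrf1 library and 14313 had none in both. 3T3-L1 is a mouse preadipocyte line, and RNA with poly(A) tails was sequenced. Day 2 cells had been in a cocktail of insulin (10 µg/mL), dexamethasone, a glucocorticoid (2 µM), IBMX, a phosphodiesterase inhibitor that raises cAMP (0.5 mM), and ascorbic acid (25 µg/mL), and day 0 cells were confluent cells taken without it. The same day 2 and day 0 pair was sequenced for cells with an shRNA against Maf1 (shMaf1), for cells given ML-60218, which inhibits RNA polymerase III, and for control cells with an empty shRNA vector, 8 libraries in all. Each group held 1 library, run in its own lane, so no difference given here has a replicate check, no test was run and no p-value is given. The labels do not say whether the knockdown cells were a pool or 1 clone. What sets the shBrf1 line or either library apart for other reasons cannot be told apart from the day or the knockdown.

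BRF1 is a subunit of TFIIIB, the factor that places RNA polymerase III on tRNA genes, and MAF1 is a repressor that binds this polymerase and BRF1. Confluent 3T3-L1 cells given insulin, a glucocorticoid and a cAMP-raising agent re-enter the cell cycle, switch on C/EBP beta and delta, then PPAR gamma and C/EBP alpha, and later fill with lipid droplets. Day 2 is the early phase of this programme. In the study, these libraries bear on how lower RNA polymerase III activity goes with adipogenesis.

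Values are given as CPM, read counts relative to the library total, after TMM scaling of the 8 libraries. The log2 ratio of a gene is day 2 over day 0 after adding 0.5 CPM to each value, which understates the change of low genes. The size rule calls a gene higher or lower if the 2 days differ by at least 2-fold on this scale and 1 of them reaches 1 CPM. Folds are ratios of CPM with a 95% exact binomial interval in parentheses, and a value of 0 counts is replaced by a floor of 3 counts, which gives a bound. Intervals and bounds cover counting error only.

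The shBrf1 libraries held 29035505 counts at day 2 and 31759559 at day 0, and the other 6 between 29207262 and 31641883. The shBrf1 day 2 library stood apart in the deposited quality tables. Ribosomal RNA took 7.8% of its reads and 0.46% to 0.93% in the other 7. Its 3′ bias score, which lies nearer 0 with less bias, was 0.36, against 0.07 in shBrf1 at day 0 and 0.06 to 0.22 elsewhere. It had 8.14 ERCC spike-in reads per 1000 aligned reads, against 4.07 in shBrf1 at day 0, 7.76 and 3.83 with ML-60218, and 5.46 and 3.89 in control at day 2 and day 0. No value below can be given without this library, because it is the only one of its group. The part these properties play in the results was not tested. If the spike-ins rather than TMM set the scale, the median log2 ratio of all genes moves to -1.18 in shBrf1 and -0.61 in control, and list medians and genes past the size rule in shBrf1 that turn under it are named where they occur. The other 14 named genes that stood above 0 in shBrf1 by less than 2-fold all fall below 0 under it. Levels set between lines are on the TMM scale, and the spike-ins would move shBrf1 levels relative to control by -0.68 at day 2 and -0.13 at day 0 on the log2 scale.

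Brf1 itself (mm10 chromosome 12, 112959862 to 113000621) had 13.5 CPM at day 2 against 19.0 CPM at day 0 in shBrf1. The other lines had 25.3 CPM at day 2 against 29.9 CPM at day 0 in shMaf1, 25.5 CPM at day 2 against 33.2 CPM at day 0 with ML-60218 and 27.8 CPM at day 2 against 32.9 CPM at day 0 in control. The 2 shBrf1 libraries were the lowest of the 8. Brf1 was therefore 1.41-fold lower (1.24 to 1.61) at day 2 than at day 0 in shBrf1 and 1.18-fold lower (1.082 to 1.30) in control, short of 2-fold in both. Maf1 had 55.0 CPM at day 2 and 61.0 CPM at day 0 in shBrf1 and 59.8 CPM at day 2 and 55.8 CPM at day 0 in control.

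Of 12460 genes at 1 CPM or more in either shBrf1 library, 1835 (14.7%) were higher and 2158 (17.3%) lower at day 2. Higher genes made up 46.0% of these, against 32.3% when library totals set the scale, which moves the median of all genes to -0.23, and 5.03% when the spike-ins set it. In control 1119 (9%) were higher and 1212 (9.75%) lower, with ML-60218 1526 (12.3%) and 1795 (14.5%), and in shMaf1 612 (4.95%) and 689 (5.57%). The median size of the log2 ratio over 12137 genes at a mean of 1 CPM was 0.63 in shBrf1, 0.30 in shMaf1, 0.56 with ML-60218 and 0.43 in control. Across these genes the shBrf1 and control responses, which share no library, had a Pearson correlation of 0.89 and a Spearman correlation of 0.86; genes are not independent replicates and all libraries share 1 scaling. Of the genes counted in shBrf1, 900 of the higher ones (49.05%) and 1051 of the lower ones (48.7%) were also counted in control, which makes up 80.43% and 86.72% of the control's own. For 85.07% of the higher and 90.22% of the lower shBrf1 genes, the ratio was farther from 0 than in control; they were chosen on the shBrf1 ratio, which favours this. Among genes chosen on the control ratio, the shares were 56.12% and 69.88%. The response with ML-60218 was closer still, with a Pearson correlation of 0.93 and a Spearman correlation of 0.92 across genes, and it shared 1238 higher genes (67.47% of those in shBrf1 and 81.13% of those with ML-60218) and 1491 lower genes (69.09% and 83.06%). The ML-60218 day 2 library was also the nearest to shBrf1 day 2 in 3′ bias score, at 0.22 against 0.36. It was the nearest in ERCC reads per 1000 aligned reads too, at 7.76 against 8.14. What part this plays in the likeness was not tested. The genes nearest the threshold had log2 ratios of 1.0001 in size just inside and 0.9997 just outside.

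**Figure D1:**
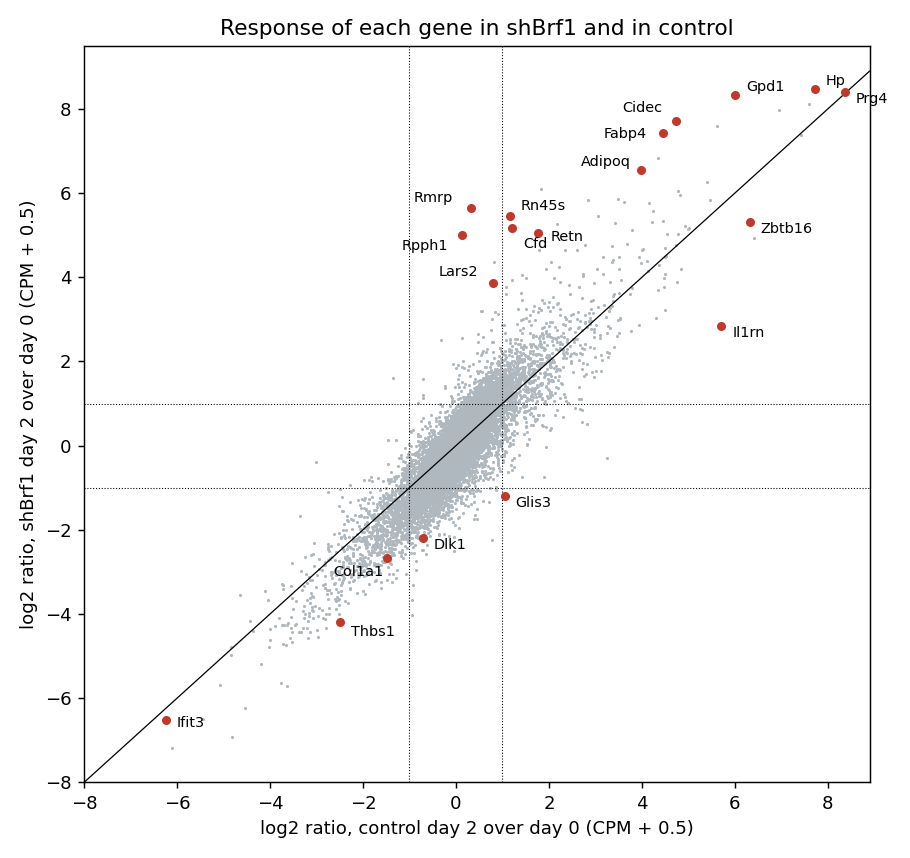
Each point is 1 of 12137 genes at a mean of 1 CPM; the vertical axis is the log2 ratio of day 2 over day 0 in shBrf1 and the horizontal axis the same in control, with 2-fold marked by dotted lines and equal responses by the solid line. The cloud runs along the solid line with a Pearson correlation of 0.89, and Fabp4, Cidec, Adipoq, Rmrp, Rpph1 and Rn45s lie above it while Il1rn and Glis3 lie below it.

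For gene lists, a member was taken as measured if its mean level in the 8 libraries reached 1 CPM. A gene that is high on 1 day only can reach this level through the libraries of that day. The filter therefore favours large ratios in either direction. Over all 12137 genes at that level, 14.1% were higher and 16.8% lower in shBrf1, 4.66% and 4.98% in shMaf1, 11.8% and 13.9% with ML-60218, and 8.86% and 9.17% in control. The median log2 ratio was -0.01 in shBrf1 and 0.05 in control. Each list is read against these shares, as a description. Of the 44 lists with 3 or more measured members, 28 kept the sign of their median when spike-ins set the scale, and 42 kept it under every other alternative tried. The insulin and IGF list turned to 0.22 and the basement membrane list to 0.22 when the length trend was removed.

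**Figure D2:**
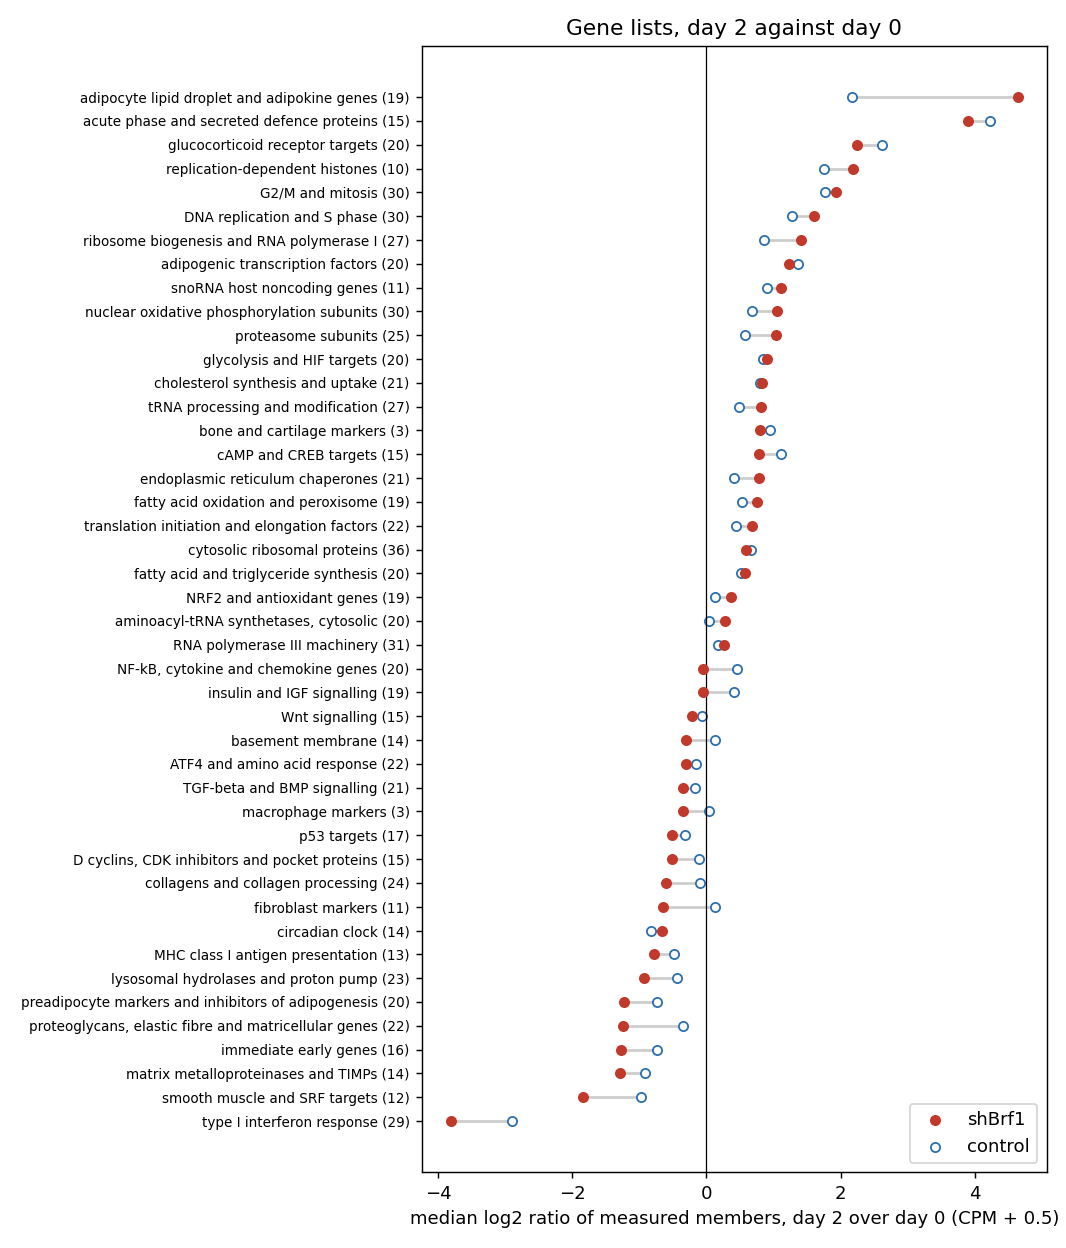
Median log2 ratio (day 2 over day 0) of the measured members of each gene list, with the number of measured members in parentheses; filled points are shBrf1 and open points control. Of the lists with 3 or more measured members, the adipocyte list lies highest in shBrf1 at 4.64 and the interferon list lowest at -3.81, while the acute phase list, at 3.89, passes the adipocyte list with members at 0 counts set to their bound (4.94), with a pseudocount of 0.1 or with members at 5 CPM; under spike-in scaling 16 of the lists change sign, all of them with a shBrf1 median between 0.26 and 1.11.

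The adipocyte programme was among the highest parts of the response. Of 25 genes for lipid droplets, lipases and adipokines, 19 were measured, 16 were higher and 0 lower in shBrf1, with a median log2 ratio of 4.64. In control 15 were higher and the median was 2.17, with ML-60218 it was 3.65 and in shMaf1 1.00. Members near 0 at day 0 were measured through day 2 libraries, which favours high ratios. With members at a mean of 5 CPM the shBrf1 median was 3.80. In bulk RNA, more cells that made these RNAs and more RNA per cell cannot be told apart. Lep, Cidea, Mgll, Rbp4, Aqp7 and Pck1 were below the level at which members were counted.

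Among lipid carriers and transporters, Fabp4 (mm10 chromosome 3, 10204343 to 10208576), the fatty acid binding protein that marks adipocytes, had 769 CPM at day 2 against 3.94 CPM at day 0 in shBrf1. It had 8.02 CPM at day 2 against 0.187 CPM at day 0 in shMaf1, 546 CPM at day 2 against 4.64 CPM at day 0 with ML-60218 and 81.1 CPM at day 2 against 3.23 CPM at day 0 in control. The day 0 levels in shBrf1 and control were close and the day 2 levels far apart: Fabp4 was 195.2-fold higher (164 to 234) at day 2 in shBrf1 and 25.1-fold higher (20.8 to 30.6) in control. Its relative Fabp5 had 1182 CPM at day 2 against 43.1 CPM at day 0 in shBrf1 and 203 CPM at day 2 against 29.1 CPM at day 0 in control. Cd36, a fatty acid transporter, had 48.4 CPM at day 2 against 3.76 CPM at day 0 in shBrf1 and 7.28 CPM at day 2 against 1.33 CPM at day 0 in control, so that shBrf1 stood higher on both days. Slc2a4, which encodes the insulin-responsive glucose transporter GLUT4, rested on 331 counts at day 2 against 1 at day 0 in shBrf1 and 83 counts at day 2 against 5 at day 0 in control.

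Of the lipid droplet genes, Cidec, whose product fuses droplets, had 181 CPM at day 2 against 0.361 CPM at day 0 in shBrf1, 500.1-fold higher (286 to 969), and 25.9 CPM at day 2 against 0.491 CPM at day 0 in control, 52.9-fold higher (32.8 to 91.2). Plin1, the droplet coat protein of adipocytes, had 40.1 CPM at day 2 against 0.662 CPM at day 0 in shBrf1 and 8.43 CPM at day 2 against 0.144 CPM at day 0 in control. G0s2, an inhibitor of triglyceride lipase, had 45.8 CPM at day 2 against 0.301 CPM at day 0 in shBrf1 and 7.05 CPM at day 2 against 0.173 CPM at day 0 in control. All 3 were near 0 at day 0 in both lines and higher in shBrf1 than in control at day 2. Plin2, the coat protein found in many cell types, had a log2 ratio of 0.69 in shBrf1 and 0.18 in control, short of the size rule. The lipases Lipe (hormone-sensitive lipase) and Pnpla2 (adipose triglyceride lipase) had log2 ratios of 4.80 and 4.09 in shBrf1, against 3.69 and 2.73 in control. Lpl, the secreted lipase that frees fatty acids from lipoproteins, did not follow them: it had 627 CPM at day 2 against 606 CPM at day 0 in shBrf1 and 390.2 CPM at day 2 against 352 CPM at day 0 in control.

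Of the adipokines, Adipoq, which encodes adiponectin, had 145 CPM at day 2 against 1.05 CPM at day 0 in shBrf1, 138-fold higher (99.2 to 199). In the other conditions Adipoq had 10.3 CPM at day 2 against 0.125 CPM at day 0 in shMaf1, 38.2 CPM at day 2 against 0.479 CPM at day 0 with ML-60218 and 19.7 CPM at day 2 against 0.779 CPM at day 0 in control, 25.3-fold higher (17.2 to 38.7). The day 2 level in shBrf1 was the highest of the 8 libraries. Cfd, which encodes adipsin, had 508 counts at day 2 against 2 at day 0 in shBrf1 and 55 counts at day 2 against 18 at day 0 in control. Retn, which encodes resistin, had 415 counts at day 2 against 0 at day 0 in shBrf1, at least 177-fold higher, and 47 counts at day 2 against 4 at day 0 in control. Both stood near 0 in shBrf1 before induction, and the Cfd count at day 0 was lower in shBrf1 than in control. Apln, which encodes the peptide apelin, was the only measured member below 0 in shBrf1, at a log2 ratio of -0.56 in shBrf1 and -0.22 in control.

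**Figure D3:**
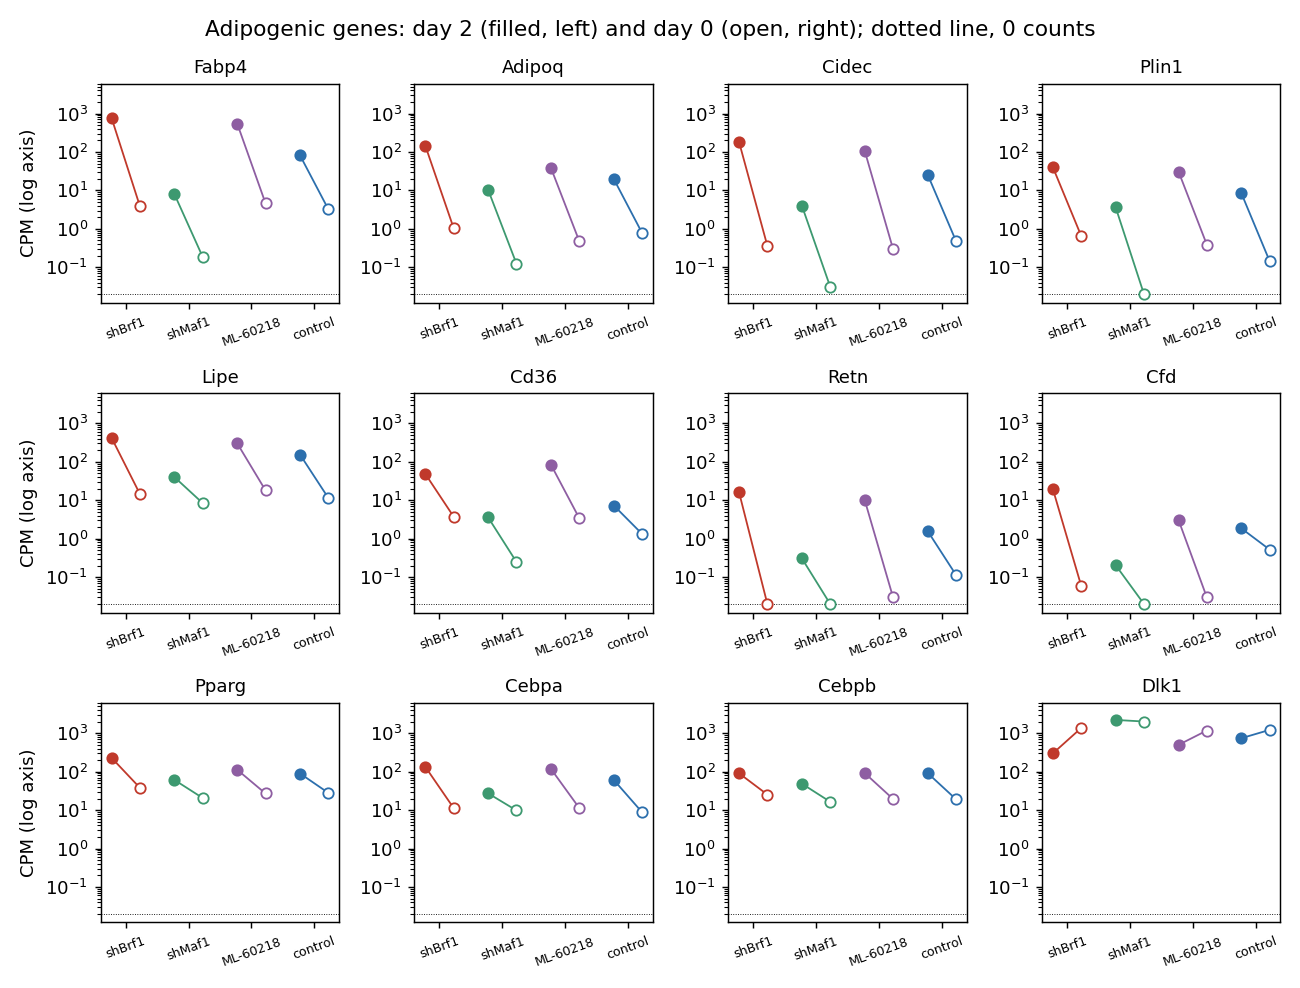
CPM on a log axis for 12 adipogenic genes in the 8 libraries, day 2 filled and day 0 open, 1 colour per condition; values on the dotted line are 0 counts. For Fabp4, Adipoq, Cidec and Plin1 the day 2 point of shBrf1 is the highest of the 8 libraries, with 769 CPM at day 2 and 3.94 CPM at day 0 for Fabp4, while the day 2 points of Cebpb in shBrf1, with ML-60218 and in control lie close together.

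The transcription factors of adipogenesis did not move as a block. Of 20 measured, 11 were higher and 5 lower in shBrf1, with a median of 1.23, which was near 0 (0.0041) under spike-in scaling, and in control 11 were higher and 4 lower, with a median of 1.36. The late factors stood higher in shBrf1 than in control. Cebpa (C/EBP alpha) had 133 CPM at day 2 against 11.3 CPM at day 0 in shBrf1, 11.8-fold higher (10.6 to 13.1), and 60.6 CPM at day 2 against 8.77 CPM at day 0 in control, 6.91-fold higher (6.11 to 7.83). Pparg (PPAR gamma), the factor without which adipocytes do not form, had 229 CPM at day 2 against 38.1 CPM at day 0 in shBrf1, 6.01-fold higher (5.65 to 6.39), and 89.4 CPM at day 2 against 28.0 CPM at day 0 in control, 3.19-fold higher (2.97 to 3.44). With ML-60218 Pparg had 112 CPM at day 2 against 27.0 CPM at day 0. The early factors were higher in both lines, with smaller ratios in shBrf1: Cebpb had 90.5 CPM at day 2 against 25.3 CPM at day 0 in shBrf1 and 92.0 CPM at day 2 against 19.2 CPM at day 0 in control. Cebpd had 59.2 CPM at day 2 against 16.9 CPM at day 0 in shBrf1 and 78.3 CPM at day 2 against 8.48 CPM at day 0 in control. At day 2 Cebpb stood at a like level in both lines, and at day 0 it was higher in shBrf1. Xbp1, a factor of the secretory pathway that also acts in adipogenesis, had 316 CPM at day 2 against 49.4 CPM at day 0 in shBrf1 and 163 CPM at day 2 against 60.9 CPM at day 0 in control. Klf15 was 47.8-fold higher (15.95 to 235) in shBrf1, on 112 counts at day 2 against 3 at day 0. The lower members in shBrf1 were Klf4 (-1.46), Nr3c1, the glucocorticoid receptor (-1.37), Ebf1 (-1.30), Egr2 (-1.22) and Zfp423 (-1.01), as log2 ratios, and spike-in scaling takes each further below 0.

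Fatty acid and triglyceride synthesis split into 2 groups. Of 20 measured genes 8 were higher and 2 lower in shBrf1, with a median of 0.57 that turned to -0.65 under spike-in scaling, and in control 8 were higher and 0 lower, with a median of 0.51. Gpd1, which makes the glycerol-3-phosphate backbone of triglycerides, had 669 CPM at day 2 against 1.56 CPM at day 0 in shBrf1, 428-fold higher (326 to 573), and 112 CPM at day 2 against 1.24 CPM at day 0 in control. The esterification enzymes Dgat1, Dgat2 and Agpat2 had log2 ratios of 3.12, 3.82 and 2.15 in shBrf1, against 1.59, 2.43 and 0.53 in control. Agpat9, a glycerol-3-phosphate acyltransferase outside the list, had 103 CPM at day 2 against 5.75 CPM at day 0 in shBrf1 and 13.1 CPM at day 2 against 4.62 CPM at day 0 in control. Acsl1, which activates fatty acids, had 689 CPM at day 2 against 15.3 CPM at day 0 in shBrf1 and 141 CPM at day 2 against 16.5 CPM at day 0 in control. Of the enzymes that act in building fatty acids, Fasn, Acaca and Acly stayed within 2-fold in shBrf1, and spike-in scaling puts all 3 below 0. Fasn had a log2 ratio of 0.62 in shBrf1 and 1.25 in control. Acaca had -0.31 in shBrf1 and 0.29 in control, while Acly had 0.23 in shBrf1 and 0.49 in control. The desaturases differed in direction. Scd1 had 776 CPM at day 2 and 73.4 CPM at day 0 in shBrf1 and 375 CPM at day 2 and 81.5 CPM at day 0 in control. Fads2 had 30.5 CPM at day 2 and 80.4 CPM at day 0 in shBrf1 and 53.9 CPM at day 2 and 69.5 CPM at day 0 in control. Of 21 cholesterol genes 6 were higher and 0 lower in shBrf1, with a median of 0.83 (control 0.79, spike-in scaling -0.37), led by Idi1 at a log2 ratio of 2.38 in shBrf1 and 1.61 in control.

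Markers of preadipocytes and inhibitors of adipogenesis were lower more often than the background, with 2 higher and 11 lower of 20 in shBrf1 and 2 higher and 5 lower in control. The list median was -1.22 in shBrf1 and -0.74 in control. Dlk1, the transmembrane inhibitor that preadipocytes shed, had 299 CPM at day 2 against 1363 CPM at day 0 in shBrf1, 4.56-fold lower (4.46 to 4.68). It had 2215 CPM at day 2 against 2014 CPM at day 0 in shMaf1, 498 CPM at day 2 against 1174 CPM at day 0 with ML-60218 and 742 CPM at day 2 against 1221 CPM at day 0 in control, 1.65-fold lower (1.62 to 1.67). The shBrf1 day 2 value was the lowest of the 8, and the ratio in control was short of the size rule. Gata2, a factor that holds preadipocytes undifferentiated, had 1.503 CPM at day 2 against 15.2 CPM at day 0 in shBrf1 and 6.20 CPM at day 2 against 26.4 CPM at day 0 in control. Sfrp2, a secreted Wnt modulator, had 7.25 CPM at day 2 against 88.7 CPM at day 0 in shBrf1 and 15.6 CPM at day 2 against 62.2 CPM at day 0 in control. Ly6a, the surface antigen Sca-1 of progenitor cells, and Foxo1, an insulin-regulated factor, were the members that stood higher: Ly6a had 874 CPM at day 2 against 109 CPM at day 0 in shBrf1 and 959 CPM at day 2 against 85.1 CPM at day 0 in control. Wnt6, a Wnt ligand that restrains adipogenesis, was low in shBrf1 on both days. It had 22 counts at day 2 against 51 at day 0 in shBrf1, 1.81-fold lower (1.078 to 3.13), and 192 counts at day 2 against 236 at day 0 in control. Of 15 Wnt pathway genes measured, 2 were higher and 5 lower, with Wnt4 highest among them at 29.5 CPM at day 2 and 5.14 CPM at day 0 in shBrf1 and 38.5 CPM at day 2 and 14.6 CPM at day 0 in control.

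Targets of the glucocorticoid in the cocktail were higher in shBrf1 in about the numbers seen in control. Of 20 glucocorticoid receptor targets 16 were higher and 0 lower in shBrf1, with a median of 2.25, and in control 16 were higher with a median of 2.62. Fkbp5, a co-chaperone of the receptor, had 634 CPM at day 2 against 41.2 CPM at day 0 in shBrf1 and 516 CPM at day 2 against 43.6 CPM at day 0 in control. Zbtb16, a zinc finger factor that this hormone switches on, had 32.6 CPM at day 2 against 0.331 CPM at day 0 in shBrf1 and 49.0 CPM at day 2 against 0.115 CPM at day 0 in control. Glul, glutamine synthetase, had 684 CPM at day 2 against 16.5 CPM at day 0 in shBrf1 and 441 CPM at day 2 against 19.5 CPM at day 0 in control. Of 15 cAMP targets 7 were higher and 3 lower in shBrf1, and the median of 0.78 turned to -0.44 under spike-in scaling, with 1.11 in control. The phosphodiesterases Pde3b, Pde4b and Pde4d had log2 ratios of 2.82, 2.59 and 2.31 in shBrf1, close to 2.65, 2.96 and 2.71 in control. Rgs2, a brake on G protein signalling, had 762 CPM at day 2 against 44.5 CPM at day 0 in shBrf1 and 407 CPM at day 2 against 45.2 CPM at day 0 in control. Ppargc1a, Atf3 and Nr4a2 were lower in shBrf1, at log2 ratios of -1.69, -1.57 and -1.14. The insulin and IGF list had no common direction, with 5 higher and 4 lower of 19 and a median of -0.06 in shBrf1. In it Igfbp4, an IGF carrier, had 1209 CPM at day 2 against 186 CPM at day 0 in shBrf1 and 2546 CPM at day 2 against 323 CPM at day 0 in control. Foxo3, a factor that insulin inactivates, had 7.13 CPM at day 2 against 23.5 CPM at day 0 in shBrf1 and 28.2 CPM at day 2 against 20.98 CPM at day 0 in control.

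Secreted defence and acute phase genes held many of the highest ratios of the response. Of 15 measured 11 were higher and 2 lower in shBrf1, with a median of 3.89 that was 4.94 with the members at 0 counts set to their bound. In control 12 were higher and 2 lower with a median of 4.22. Here too, members near 0 at day 0 were measured through day 2 libraries. With members at a mean of 5 CPM the shBrf1 median was 4.71. Hp, which encodes haptoglobin, had 8261 counts at day 2 against 13 at day 0 in shBrf1, 814-fold higher (476 to 1529.7), and 5303 counts at day 2 against 12 at day 0 in control, 516-fold higher (295 to 1000.1). Prg4, the joint lubricant, had 7818 counts at day 2 against 13 at day 0 in shBrf1 and 6282 counts at day 2 against 5 at day 0 in control. Pip, a secreted protein of exocrine glands, had 3602 counts at day 2 against 0 at day 0 in shBrf1, at least 1538-fold higher, and 2867 counts at day 2 against 0 at day 0 in control, at least 1117-fold higher. These 3 were all but silent at day 0 in both lines. Lcn2, a lipocalin that binds iron carriers of bacteria, reached like levels, with 167 CPM at day 2 against 0.511 CPM at day 0 in shBrf1 and 166 CPM at day 2 against 0.462 CPM at day 0 in control. Serpina3n, a protease inhibitor, had 275 CPM at day 2 against 8.45 CPM at day 0 in shBrf1 and 260.1 CPM at day 2 against 2.57 CPM at day 0 in control. The complement proteases C1ra and C1s were the lower members, at log2 ratios of -2.25 and -2.43 in shBrf1 and -1.004 and -1.39 in control.

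Other genes among the 12 highest of the shBrf1 response were Cxcl13, a chemokine for B cells, Fam83a, Ren2, a renin gene, and Rgcc, a regulator of the cell cycle. Cxcl13 had 4457 counts at day 2 against 6 at day 0 in shBrf1 and 3620 counts at day 2 against 17 at day 0 in control. Fam83a had 2817 counts at day 2 against 2 at day 0 in shBrf1, 1804-fold higher (499 to 14908), and 793 counts at day 2 against 2 at day 0 in control, 463-fold higher (128 to 3833). Rgcc had 90.9 CPM at day 2 against 0.872 CPM at day 0 in shBrf1 and 32.2 CPM at day 2 against 0.693 CPM at day 0 in control. Each was higher in the control response too. Reads of Ren2 can be shared with its near-identical copy Ren1, and those of Orm1, Orm2, Mt1, Mt2 and the Serpina3 genes with their own relatives, so their counts are less certain.

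The cell cycle genes were higher together. Of 30 genes for DNA replication and S phase, 22 were higher and 0 lower in shBrf1 with a median of 1.60, and 24 were higher in control with a median of 1.27. Of 30 genes for G2, M phase and mitosis, 28 were higher and 0 lower with a median of 1.93, and 29 were higher in control with a median of 1.77. Both medians stayed above 0 under spike-in scaling, at 0.39 and 0.73. Ccne2, cyclin E2, had 47.1 CPM at day 2 against 4.63 CPM at day 0 in shBrf1 and 19.9 CPM at day 2 against 5.22 CPM at day 0 in control. Tk1, thymidine kinase, had 96.9 CPM at day 2 against 10.4 CPM at day 0 in shBrf1 and 81.7 CPM at day 2 against 10.2 CPM at day 0 in control. Rrm2, the small subunit of ribonucleotide reductase, had 199.5 CPM at day 2 against 22.7 CPM at day 0 in shBrf1 and 101 CPM at day 2 against 14.3 CPM at day 0 in control. At day 2 all 3 stood higher in shBrf1 than in control, a difference that spike-in scaling turns round for Tk1. Among mitotic genes, Birc5 (survivin) had 101 CPM at day 2 against 11.8 CPM at day 0 in shBrf1 and 64.8 CPM at day 2 against 12.3 CPM at day 0 in control. The kinase Aurka had 74.5 CPM at day 2 against 11.9 CPM at day 0 in shBrf1 and 45.2 CPM at day 2 against 9.06 CPM at day 0 in control. Top2a, topoisomerase II, was higher in both lines and had the smaller ratio in shBrf1, with 453 CPM at day 2 against 72.3 CPM at day 0 in shBrf1 and 682 CPM at day 2 against 79.4 CPM at day 0 in control. Of 10 replication-dependent histone genes measured, whose mRNAs mostly lack poly(A) tails, 8 were higher and 0 lower in shBrf1 with a median of 2.19. In control 7 were higher and 0 lower with a median of 1.75. Hist1h1c had 306 CPM at day 2 and 57.1 CPM at day 0 in shBrf1 and 162 CPM at day 2 and 32.7 CPM at day 0 in control.

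The D cyclins, CDK inhibitors and pocket proteins had 0 higher and 4 lower of 15 in shBrf1, against 2 and 0 in control. Cdkn2b (p15) and Cdkn2a, inhibitors of CDK4 and CDK6, had log2 ratios of -1.44 and -1.09 in shBrf1, against -0.18 and -0.16 in control. Ccnd2 had 182 CPM at day 2 against 449 CPM at day 0 in shBrf1 and 238 CPM at day 2 against 435 CPM at day 0 in control. Cdk6 had 2.35 CPM at day 2 against 7.40 CPM at day 0 in shBrf1 and 4.55 CPM at day 2 against 8.34 CPM at day 0 in control. Of 17 p53 targets 0 were higher and 5 lower in shBrf1, close to 0 and 3 in control, with Plk2 lowest at 19.6 CPM at day 2 and 152 CPM at day 0 in shBrf1 and 29.3 CPM at day 2 and 124 CPM at day 0 in control.

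Promoters of mitotic genes are known for 2 short elements, the CHR (TTTGAA) and the CCAAT box. In RefSeq promoters of build GRCm38.p6, from 250 bases before to 50 after the start, 25 of the 30 mitotic genes had an entry. The CHR letters were found on either strand in 17 of 25 (68%), against 20.2% of 27025 genes, and CCAAT in 20 of 25 (80%), against 41.1%. Of 24 S phase genes, TTTCCCGC, a form of the E2F site, was found in 5 (20.8%), against 1.24% of all, and TTTGGCGC in 5 (20.8%), against 0.585%. A match says only that the letters occur. The stretches around the CHR letters (in capitals) are shown for 3 of the mitotic genes of the response, Cdk1 at chr10:69352953-69353008, Ccnb2 at chr9:70421691-70421746 and Top2a at chr11:99024338-99024393, all on the minus strand, read 5′ to 3′.
Cdk1: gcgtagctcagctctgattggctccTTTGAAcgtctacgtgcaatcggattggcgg
Ccnb2: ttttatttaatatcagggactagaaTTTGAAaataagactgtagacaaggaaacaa
Top2a: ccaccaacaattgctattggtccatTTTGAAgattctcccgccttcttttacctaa
Their log2 ratios in shBrf1 were 2.31 for Cdk1, 2.16 for Ccnb2 and 2.64 for Top2a, all higher at day 2.

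The interferon response was the lowest list. Type I interferon signals through a complex that holds STAT2 and IRF9 and binds the ISRE element (here GAAA and GAAA with any 2 bases between them) in promoters of antiviral genes. Of 29 measured members 0 were higher and 26 lower in shBrf1, with a median of -3.81; in control 26 were lower with a median of -2.89, with ML-60218 the median was -3.79 and in shMaf1 -0.03. Of 21 members with a RefSeq promoter, 11 (52.4%) held the ISRE letters on either strand, against 3.99% of 27025 genes. Stretches of 60 bases around the letters (in capitals, with TTTC for GAAA where the site lies on the other strand) are shown for 5 members whose log2 ratio was below -3.5: Ifit3 at chr19:34583348-34583407 (plus strand), Gbp3 at chr3:142559974-142560033 (plus), Rsad2 at chr12:26456538-26456597 (minus), Bst2 at chr8:71537568-71537627 (minus) and Isg15 at chr4:156200862-156200921 (minus).
Ifit3: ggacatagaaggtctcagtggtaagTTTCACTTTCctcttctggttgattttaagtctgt
Gbp3: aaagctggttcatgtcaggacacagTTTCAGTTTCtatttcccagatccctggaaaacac
Rsad2: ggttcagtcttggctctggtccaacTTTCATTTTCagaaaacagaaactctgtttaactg
Bst2: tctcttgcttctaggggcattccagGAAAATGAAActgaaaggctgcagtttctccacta
Isg15: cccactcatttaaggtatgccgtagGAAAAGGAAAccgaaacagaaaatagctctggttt
All 5 carry the letters upstream of the annotated start.

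Among effectors, Ifit3, which binds viral RNA with its relatives, had 2.89 CPM at day 2 against 309 CPM at day 0 in shBrf1, 107-fold lower (85.2 to 136). It had 67.2 CPM at day 2 against 229.7 CPM at day 0 in shMaf1, 1.03 CPM at day 2 against 310.0 CPM at day 0 with ML-60218 and 5.40 CPM at day 2 against 446 CPM at day 0 in control, 82.7-fold lower (70.8 to 97.3). Ifit3 was thus abundant at day 0 in all 4 conditions and low at day 2 in 3 of them. Oas2, a sensor of double-stranded RNA that makes oligoadenylate, had 0.385 CPM at day 2 against 43.7 CPM at day 0 in shBrf1 and 3.51 CPM at day 2 against 53.7 CPM at day 0 in control. Rsad2 (viperin) had 3 counts at day 2 against 377 at day 0 in shBrf1 and 39 counts at day 2 against 763 at day 0 in control. Usp18, which removes ISG15 from proteins, had 2.12 CPM at day 2 against 63.8 CPM at day 0 in shBrf1 and 4.72 CPM at day 2 against 83.7 CPM at day 0 in control. Of the regulators, Irf7, which amplifies interferon genes, had 2.27 CPM at day 2 against 59.6 CPM at day 0 in shBrf1 and 7.45 CPM at day 2 against 69.3 CPM at day 0 in control. Irf9 had 16.9 CPM at day 2 against 103 CPM at day 0 in shBrf1 and 31.1 CPM at day 2 against 116 CPM at day 0 in control. Stat2 had 42.6 CPM at day 2 against 252 CPM at day 0 in shBrf1 and 101 CPM at day 2 against 262 CPM at day 0 in control. The day 2 level of each was lower in shBrf1 than in control. Oasl1 was the member with the opposite sign, with 24 counts at day 2 against 4 at day 0 in shBrf1 and 26 counts at day 2 against 8 at day 0 in control, and stayed below the 1 CPM that counting asked for.

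**Figure D4:**
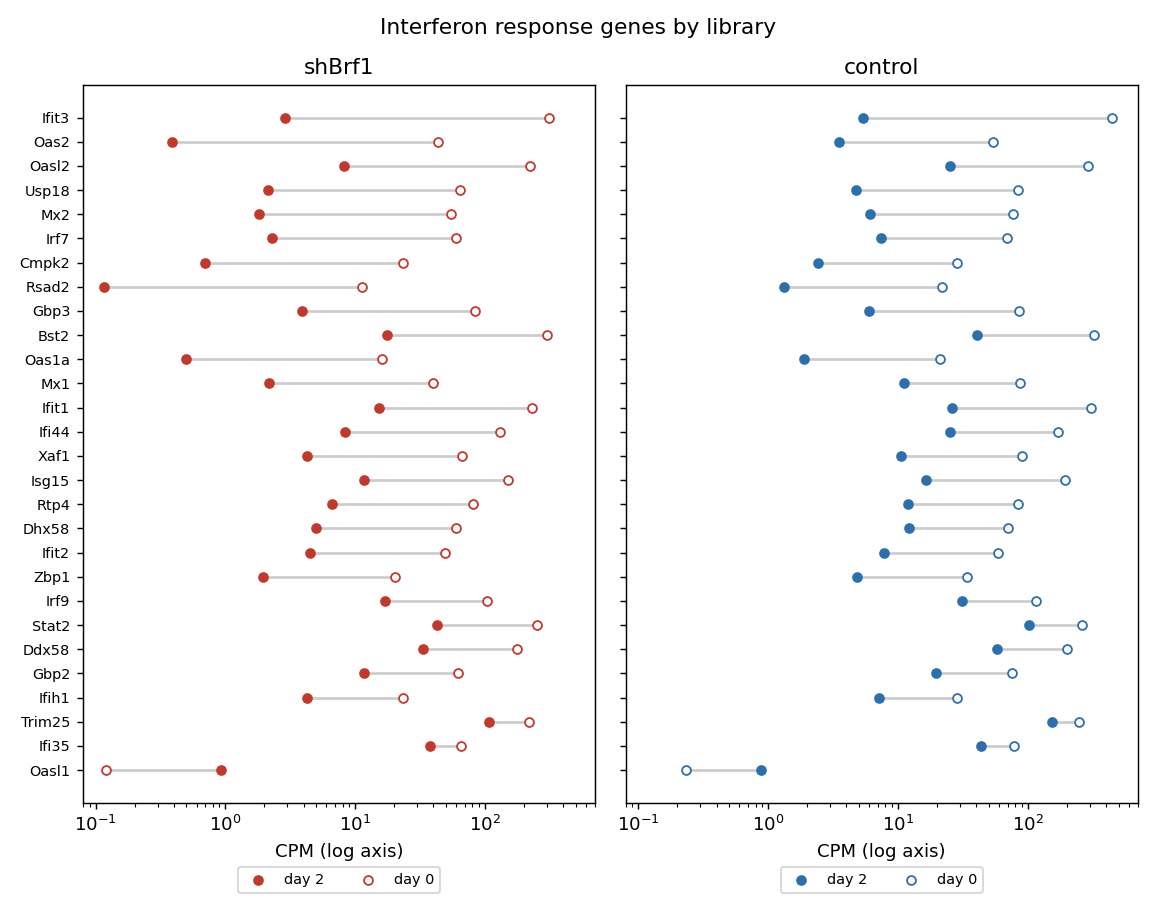
CPM on a log axis of 28 of the 29 measured interferon response genes in shBrf1 (left panel) and control (right panel), day 2 filled and day 0 open, ordered by the shBrf1 ratio. Day 2 lies left of day 0 for every gene shown but Oasl1 in both panels, and Ifit3 in shBrf1 has 2.89 CPM at day 2 and 309 CPM at day 0.

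Interferon-induced GTPases outside that list were among the 12 lowest genes of the response. Gvin1 had 0.732 CPM at day 2 against 91.9 CPM at day 0 in shBrf1 and 3.68 CPM at day 2 against 97.1 CPM at day 0 in control. Ifi47 had 2.20 CPM at day 2 against 70.2 CPM at day 0 in shBrf1 and 5.13 CPM at day 2 against 73.8 CPM at day 0 in control. Tgtp2 had 0 counts at day 2 against 1483 at day 0 in shBrf1, at least 386-fold lower, and Tgtp1 had 24 counts at day 2 against 1462 at day 0 in shBrf1. These 2 genes overlap on chromosome 11 and are near-identical copies, so the split of reads between them is uncertain. Of 13 genes for antigen presentation by MHC class I, 0 were higher and 5 lower in shBrf1 and 3 lower in control, with B2m, the light chain of the complex, at 293 CPM at day 2 and 1317 CPM at day 0 in shBrf1 and 373 CPM at day 2 and 1248 CPM at day 0 in control. The NF-kB and chemokine list had no common direction, with 3 higher and 5 lower of 20 in shBrf1 and 5 and 1 in control. In it Csf1, the macrophage growth factor, had 100.4 CPM at day 2 against 289 CPM at day 0 in shBrf1 and 156 CPM at day 2 against 246 CPM at day 0 in control. Sod2, the mitochondrial superoxide dismutase, had 202 CPM at day 2 against 47.6 CPM at day 0 in shBrf1 and 194 CPM at day 2 against 46.9 CPM at day 0 in control.

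Cdsn, which encodes the skin adhesion protein corneodesmosin, was the lowest gene of the response by log2 ratio, with 1.19 CPM at day 2 against 204 CPM at day 0 in shBrf1, 171-fold lower (120.4 to 252), and 5.70 CPM at day 2 against 175 CPM at day 0 in control, 30.7-fold lower (26.3 to 36.0). Other genes among the 12 lowest encode membrane and matrix proteins. Sorcs2, a sortilin-like receptor, had 1.89 CPM at day 2 against 124 CPM at day 0 in shBrf1 and 7.72 CPM at day 2 against 102 CPM at day 0 in control. Itga11, the alpha subunit of a collagen-binding integrin, had 2 counts at day 2 against 689 at day 0 in shBrf1 and 11 counts at day 2 against 539 at day 0 in control. Ptprv, a receptor phosphatase, had 4.05 CPM at day 2 against 125 CPM at day 0 in shBrf1 and 2.80 CPM at day 2 against 53.4 CPM at day 0 in control, so that shBrf1 started from a higher level. Slc40a1, the iron exporter ferroportin, reached like levels in both, with 1.39 CPM at day 2 against 51.3 CPM at day 0 in shBrf1 and 1.15 CPM at day 2 against 46.7 CPM at day 0 in control.

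The extracellular matrix was lower in shBrf1 in most of its lists. Collagen genes and their processing enzymes had 1 higher and 11 lower of 24 with a median of -0.61, against 4 and 6 with a median of -0.10 in control. Col1a1 and Col1a2, the chains of type I collagen, were among the lower members. Col1a1 had 927 CPM at day 2 and 5922 CPM at day 0 in shBrf1 and 1824 CPM at day 2 and 5080.2 CPM at day 0 in control. Col1a2 had 2468 CPM at day 2 and 12203 CPM at day 0 in shBrf1 and 3935 CPM at day 2 and 10919 CPM at day 0 in control. Col3a1, the fibrillar type III chain, had 5330.2 CPM at day 2 against 11743 CPM at day 0 in shBrf1 and 10368 CPM at day 2 against 11007 CPM at day 0 in control. Col12a1 had 374 CPM at day 2 against 852 CPM at day 0 in shBrf1 and 1004 CPM at day 2 against 768 CPM at day 0 in control. The day 2 levels of both were lower in shBrf1 than in control. Lox, which cross-links collagen, had 212 CPM at day 2 against 1692 CPM at day 0 in shBrf1 and 441 CPM at day 2 against 2015 CPM at day 0 in control. Plod2, a lysyl hydroxylase, was the member counted higher in shBrf1, at 123 CPM at day 2 and 38.4 CPM at day 0, and had 93.4 CPM at day 2 and 30.5 CPM at day 0 in control. The basement membrane list had 1 higher and 5 lower of 14 in shBrf1, with the type IV collagen chain Col4a1, which spike-in scaling takes below 0, at 3933 CPM at day 2 and 1823 CPM at day 0 and Col4a5 at 63.1 CPM at day 2 and 414 CPM at day 0. In control Col4a1 had 4112 CPM at day 2 and 1365 CPM at day 0. Col4a5 had 91.0 CPM at day 2 and 471 CPM at day 0 there.

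Proteoglycans, elastic fibre and matricellular genes had 3 higher and 14 lower of 22 in shBrf1 with a median of -1.24, against 5 and 9 with a median of -0.34 in control. Thbs1, thrombospondin 1, had 24.01 CPM at day 2 against 445 CPM at day 0 in shBrf1, 18.5-fold lower (17.1 to 20.1), and 119 CPM at day 2 against 677 CPM at day 0 in control, 5.68-fold lower (5.49 to 5.89). Thbs2 had 72.8 CPM at day 2 against 651 CPM at day 0 in shBrf1 and 311 CPM at day 2 against 759 CPM at day 0 in control. Fbn1, the fibrillin of elastic fibres, had 219 CPM at day 2 against 688 CPM at day 0 in shBrf1 and 474 CPM at day 2 against 555 CPM at day 0 in control. Fn1, fibronectin, had 2503 CPM at day 2 against 5259.7 CPM at day 0 in shBrf1 and 4030.1 CPM at day 2 against 3554 CPM at day 0 in control. Both passed the size rule in shBrf1 and not in control. Ogn, the small proteoglycan osteoglycin, had 12.5 CPM at day 2 against 349 CPM at day 0 in shBrf1 and 26.9 CPM at day 2 against 345 CPM at day 0 in control. Lum (lumican), Vcan (versican) and Fbln5 were the higher members, at log2 ratios of 3.76, 1.58 and 1.38 in shBrf1 and 4.49, 1.99 and 2.20 in control. Of 14 metalloproteinases and inhibitors 0 were higher and 8 lower in shBrf1, with Mmp9 at 3.08 CPM at day 2 and 53.8 CPM at day 0, the inhibitor Timp3 at 1.66 CPM at day 2 and 17.1 CPM at day 0 and Mmp14 at 266 CPM at day 2 and 1245 CPM at day 0.

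Contractile genes were lower as well, with 0 higher and 7 lower of 12 smooth muscle and SRF targets and a median of -1.84 in shBrf1, against 6 lower and -0.97 in control. Acta2, smooth muscle actin, had 17.6 CPM at day 2 against 189 CPM at day 0 in shBrf1 and 42.5 CPM at day 2 against 305 CPM at day 0 in control. Tpm1, a tropomyosin, had 101 CPM at day 2 against 659 CPM at day 0 in shBrf1 and 185 CPM at day 2 against 777 CPM at day 0 in control. Cnn2, a calponin, had 52.4 CPM at day 2 against 319 CPM at day 0 in shBrf1 and 149 CPM at day 2 against 377 CPM at day 0 in control. Day 0 levels of all 3 were lower in shBrf1 than in control, and day 2 levels lower still. Vcl and Srf itself stayed near 0, at 0.06 and -0.29. Of 21 TGF-beta and BMP genes 4 were higher and 6 lower, with the receptor Tgfbr2 at 412 CPM at day 2 and 139 CPM at day 0 and the ligand Tgfb2 at 3.47 CPM at day 2 and 13.7 CPM at day 0 in shBrf1. Of 16 immediate early genes 2 were higher and 9 lower in shBrf1, and Fosl1 and Myc were the higher ones. Egr1 had 8.40 CPM at day 2 and 104 CPM at day 0 in shBrf1 and 29.2 CPM at day 2 and 164 CPM at day 0 in control. Fosl1 had 48.8 CPM at day 2 and 4.48 CPM at day 0 in shBrf1 and 46.5 CPM at day 2 and 4.07 CPM at day 0 in control. Myc, which drives ribosome and cell cycle genes, had 96.5 CPM at day 2 and 16.9 CPM at day 0 in shBrf1 and 75.4 CPM at day 2 and 17.5 CPM at day 0 in control.

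The machinery of RNA polymerase III shifted little. Of 31 genes for its subunits and factors, all measured, 4 were higher and 0 lower in shBrf1, with a median of 0.26 that turned to -0.93 under spike-in scaling. In this list 1 was higher in control with a median of 0.18. Polr3g, a subunit with the paralog Polr3gl, had 16.2 CPM at day 2 against 3.79 CPM at day 0 in shBrf1 and 8.70 CPM at day 2 against 4.50 CPM at day 0 in control. The other 3 were Polr3k, at a log2 ratio of 1.11 in shBrf1 and 0.55 in control, and Polr1c and Polr1d, which RNA polymerases I and III share. Polr1c had a log2 ratio of 1.30 in shBrf1 and 1.14 in control. Polr1d had 1.04 in shBrf1 and 0.57 in control, and spike-in scaling takes Polr3k and Polr1d below 0. Polr3a, the largest subunit, had 15.9 CPM at day 2 against 24.3 CPM at day 0 in shBrf1 and 20.5 CPM at day 2 against 25.9 CPM at day 0 in control. Brf2, the BRF1 paralog for genes with upstream promoters, and Bdp1, another TFIIIB subunit, had log2 ratios of 0.35 and 0.10. Ssb, the La protein that holds the ends of new polymerase III transcripts, had 353 CPM at day 2 against 177 CPM at day 0 in shBrf1 and 187 CPM at day 2 against 181 CPM at day 0 in control.

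Of 12 RNA polymerase III transcripts listed, 5 had a row in the tables and only Rmrp and Rpph1 reached the level at which members were counted. These are the RNA parts of the nucleases MRP and P, which process ribosomal RNA and tRNA precursors. Rmrp (mm10 chromosome 4, 43492785 to 43493059) had 798 counts at day 2 against 4 at day 0 in shBrf1. The other 3 conditions had 7 counts at day 2 against 9 at day 0 in shMaf1, 3 against 1 with ML-60218 and 6 against 2 in control. Rpph1 (mm10 chromosome 14, 50807447 to 50807771) had 426 counts at day 2 against 1 at day 0 in shBrf1, with 5 against 4 in shMaf1, 4 against 0 with ML-60218 and 5 against 4 in control. The shBrf1 day 2 library held nearly all counts of both, at 256-fold higher (99.4 to 940.4) and 546-fold higher (97.4 to 21607) than day 0. Both reached the level of counting only through this library, so the filter itself favours its standing apart. The same library held the ribosomal RNA excess given above, and untailed RNA enters a poly(A) library only in traces; what part this plays was not tested. In the mouse genome annotation GENCODE M21, Rmrp is a transcript of 271 bases (build GRCm38, chr4:43492788-43493058, minus strand) with no run of adenines longer than 3 (in capitals) and no adenine at its end.
Rmrp: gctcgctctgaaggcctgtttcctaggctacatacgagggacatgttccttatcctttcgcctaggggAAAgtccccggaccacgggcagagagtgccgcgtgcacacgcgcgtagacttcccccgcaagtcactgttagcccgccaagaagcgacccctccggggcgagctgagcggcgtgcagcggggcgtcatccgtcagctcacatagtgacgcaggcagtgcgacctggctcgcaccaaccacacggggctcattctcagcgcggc
Rpph1, of 319 bases, has no run of adenines longer than 2. Neighbouring genes were higher at day 2 in shBrf1 too, short of the size rule. Their counts were higher at day 2 in control as well. Ccdc107, next to Rmrp, had a log2 ratio of 0.90 in shBrf1. Its counts were 663 at day 2 against 446 at day 0 in shBrf1 and 706 at day 2 against 510 at day 0 in control. Parp2, next to Rpph1, had a log2 ratio of 0.96 in shBrf1. Its counts were 1008 at day 2 against 658 at day 0 in shBrf1 and 868 at day 2 against 707 at day 0 in control. Vaultrc5, another polymerase III transcript, had 23 counts at day 2 against 0 at day 0 in shBrf1, and no small nuclear RNA of the untailed list reached the level of counting, with a summed level of 1.66 CPM at day 2 and 0.120 CPM at day 0 for its 9 rows. These neighbours and Vaultrc5 were chosen after their values were seen.

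Rn45s, the row for the ribosomal RNA precursor, had 1164657 counts at day 2 against 33784 at day 0 in shBrf1 and 52828 counts at day 2 against 27703 at day 0 in control. It took 4.01% of all counts in the shBrf1 day 2 library and 0.106% in the day 0 library. Lars2, a mitochondrial leucyl-tRNA synthetase gene, was far higher in shBrf1 as well, with 6474 CPM at day 2 against 447 CPM at day 0 in shBrf1, 14.5-fold higher (14.2 to 14.7), and 836 CPM at day 2 against 481 CPM at day 0 in control, 1.74-fold higher (1.70 to 1.77). An unnamed row on the mitochondrial chromosome, AK140265 (position 70 to 852), had 1277 CPM at day 2 against 421 CPM at day 0 in shBrf1 and 135 CPM at day 2 against 345 CPM at day 0 in control, and was chosen after its values were seen. All 3 stood higher at day 2 than at day 0 in shBrf1, as did the ribosomal RNA share, and a link between them was not tested. In control AK140265 was lower at day 2, while ribosomal RNA took 0.89% of reads at day 2 against 0.56% at day 0.

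**Figure D5:**
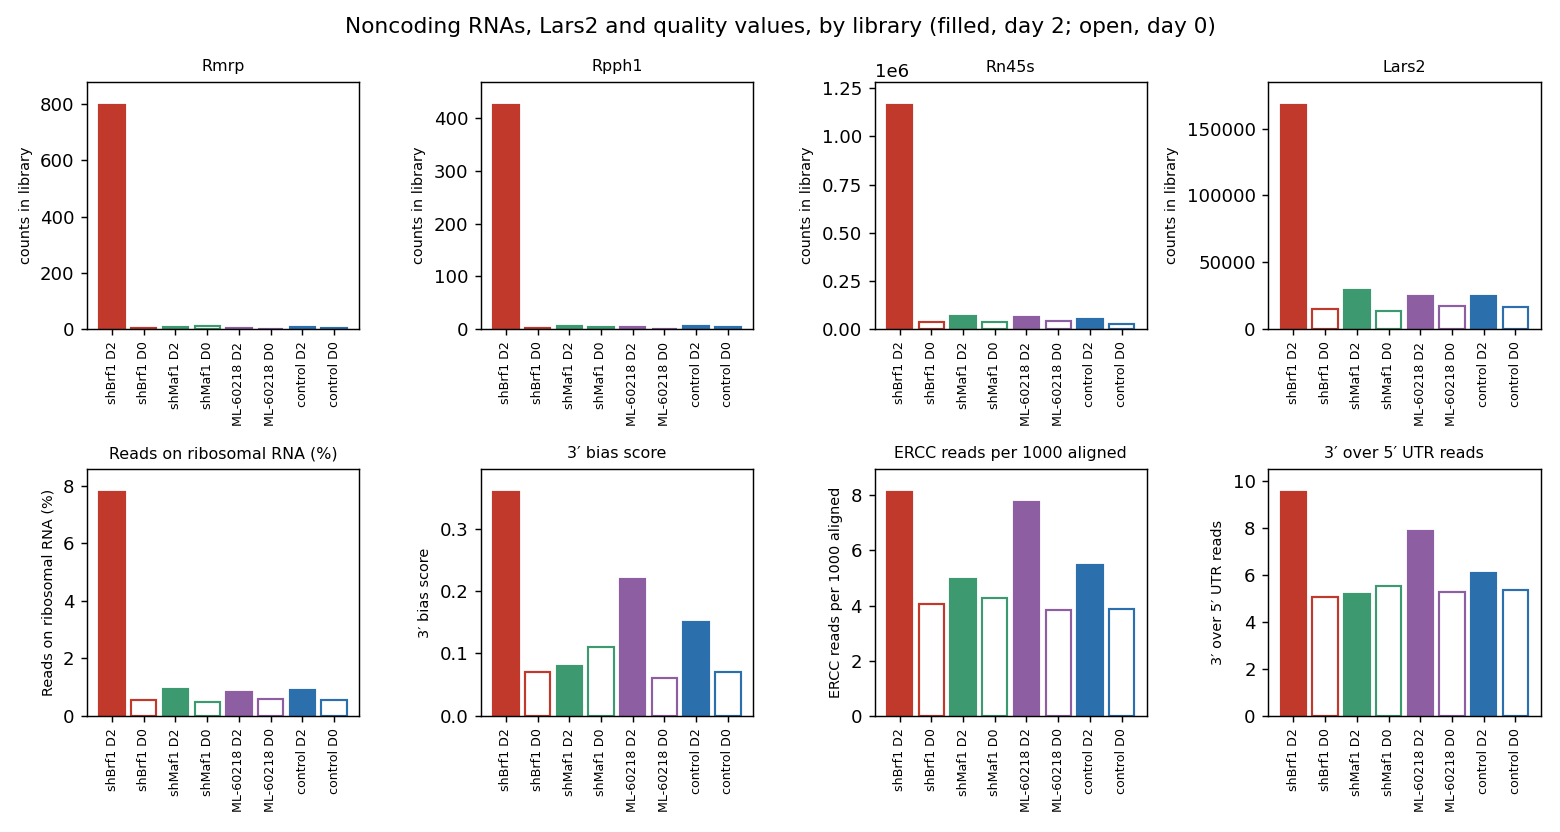
Counts of Rmrp, Rpph1, Rn45s and Lars2 (upper row) and deposited quality values (lower row) in each of the 8 libraries, day 2 filled and day 0 open. The shBrf1 day 2 library holds the highest bar in every panel, with 798 counts of Rmrp and a ribosomal RNA share of 7.8%, while the ERCC and untranslated region panels show ML-60218 at day 2 next to it.

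Genes for making ribosomes were higher in shBrf1 at a share above the background. Of 27 genes for ribosome biogenesis and RNA polymerase I, 19 were higher and 0 lower with a median of 1.41, against 11 higher and 0.86 in control. The shBrf1 median stayed above 0 at 0.20 under spike-in scaling. Nop56, a core protein of the box C/D snoRNP, had 432 CPM at day 2 against 85.3 CPM at day 0 in shBrf1 and 261 CPM at day 2 against 95.5 CPM at day 0 in control. Dkc1, the pseudouridine synthase dyskerin, had 112 CPM at day 2 against 31.6 CPM at day 0 in shBrf1 and 69.8 CPM at day 2 against 37.4 CPM at day 0 in control. Ncl, nucleolin, had 1541 CPM at day 2 against 512 CPM at day 0 in shBrf1 and 895 CPM at day 2 against 494 CPM at day 0 in control. Day 0 levels differed little between the lines, and day 2 levels stood higher in shBrf1, though close to those of control under spike-in scaling. The E-box CACGTG, the site of MYC, was found in promoters of 5 of 22 members (22.7%), against 8.09% of all genes. Cytosolic ribosomal protein genes had 1 higher and 0 lower of 36 with a median of 0.59, close to 0.67 in control, and the shBrf1 median fell below 0 under spike-in scaling, to -0.64. Translation factors had 6 of 22 higher with a median of 0.67 (-0.55 under spike-in scaling), led by Eif5a and Eif4a1. Eif5a had 1001 CPM at day 2 and 312 CPM at day 0 in shBrf1 and 697 CPM at day 2 and 311 CPM at day 0 in control. Eif4a1, the helicase of cap-dependent initiation, had 1546 CPM at day 2 and 501 CPM at day 0 in shBrf1 and 1056 CPM at day 2 and 518 CPM at day 0 in control.

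Of 27 measured genes that process and modify tRNA, the main product class of the polymerase that BRF1 serves, 10 were higher and 0 lower in shBrf1 with a median of 0.81, against 2 higher and 0.48 in control. The shBrf1 median turned to -0.37 under spike-in scaling. Pop5, a protein of RNase P and MRP, had 35.5 CPM at day 2 against 9.78 CPM at day 0 in shBrf1 and 25.9 CPM at day 2 against 10.0 CPM at day 0 in control. Rpp38 and Rpp40, of the same complexes, had log2 ratios of 1.37 and 1.27 in shBrf1 and 0.90 and 0.53 in control. Nsun2, a tRNA methyltransferase, had 206 CPM at day 2 against 73.4 CPM at day 0 in shBrf1 and 138 CPM at day 2 against 80.7 CPM at day 0 in control. Xpot, the tRNA exporter, stood at the other end, at a log2 ratio of -0.53 in shBrf1 and -0.57 in control. Of 20 cytosolic aminoacyl-tRNA synthetases 3 were higher and 1 lower in shBrf1, with a median of 0.27 (-0.95 under spike-in scaling) and 0.04 in control. Farsb had 116 CPM at day 2 against 41.1 CPM at day 0 in shBrf1 and 81.7 CPM at day 2 against 48.3 CPM at day 0 in control. Aars had 216 CPM at day 2 against 499 CPM at day 0 in shBrf1 and 279.9 CPM at day 2 against 535 CPM at day 0 in control.

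Nuclear genes for oxidative phosphorylation had 16 higher and 0 lower of 30 with a median of 1.05 in shBrf1, against 1 higher and 0.68 in control. The shBrf1 median was -0.16 under spike-in scaling and 0.60 with the length trend removed. Cycs, cytochrome c, had 545 CPM at day 2 against 59.7 CPM at day 0 in shBrf1 and 196 CPM at day 2 against 57.1 CPM at day 0 in control. Cox5a, a subunit of cytochrome oxidase, had 159.7 CPM at day 2 against 47.8 CPM at day 0 in shBrf1 and 91.5 CPM at day 2 against 50.6 CPM at day 0 in control. Fatty acid oxidation and peroxisome genes had 9 higher and 0 lower of 19 with a median of 0.76 (-0.46 under spike-in scaling). Acadm, the medium-chain dehydrogenase, had 684 CPM at day 2 and 65.1 CPM at day 0 in shBrf1 and 225 CPM at day 2 and 59.8 CPM at day 0 in control. Proteasome subunits had 13 higher and 0 lower of 25 with a median of 1.03, against 1 higher and 0.58 in control, and turned to -0.19 under spike-in scaling. Psma1 led them, with 524 CPM at day 2 against 74.9 CPM at day 0 in shBrf1 and 281 CPM at day 2 against 77.6 CPM at day 0 in control. All 25 proteasome subunits had a larger ratio in shBrf1 than in control on the TMM scale, and 10 under spike-in scaling. Glycolysis and HIF targets had 9 higher and 1 lower of 20 with a median of 0.90 (-0.33 under spike-in scaling), with Ldha at 1105 CPM at day 2 and 319 CPM at day 0 and the glucose transporter Slc2a1 at 37.3 CPM at day 2 and 91.4 CPM at day 0 in shBrf1.

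Lysosomal genes were lower, with 0 higher and 8 lower of 23 and a median of -0.94 in shBrf1, against 5 lower and -0.44 in control. Ctsa, a carboxypeptidase, had 188 CPM at day 2 against 609 CPM at day 0 in shBrf1 and 234 CPM at day 2 against 471 CPM at day 0 in control. Npc2, a cholesterol carrier of the lysosome, had 1404 CPM at day 2 against 765 CPM at day 0 in shBrf1. Endoplasmic reticulum chaperones had 6 higher and 2 lower of 21 with a median of 0.78 (-0.45 under spike-in scaling). The co-chaperone Dnajb9 had 69.9 CPM at day 2 and 17.8 CPM at day 0 in shBrf1 and 19.7 CPM at day 2 and 15.2 CPM at day 0 in control. Creld2 had 107 CPM at day 2 and 33.6 CPM at day 0 in shBrf1 and 57.5 CPM at day 2 and 27.8 CPM at day 0 in control. Herpud1 and Ero1l were the lower members, at -1.40 and -1.17. ATF4 targets had 2 higher and 7 lower of 22 in shBrf1 and 2 and 7 in control, with Aldh1l2 at 26.1 CPM at day 2 and 229.8 CPM at day 0 and Trib3 at 26.8 CPM at day 2 and 124 CPM at day 0 lowest; Atf4 itself had 470.0 CPM at day 2 against 425 CPM at day 0. The ATF4 site TGATGNAAT was in 1 of 20 promoters (5%) and in 1.08% of all genes, and the cAMP site TGACGTCA in 0 of 10 promoters of the cAMP list and 2.03% of all. NRF2 targets had 6 higher and 3 lower of 19 with a median of 0.36 (-0.85 under spike-in scaling), with Txn1 at 521 CPM at day 2 and 117 CPM at day 0 and Hmox1 at 49.8 CPM at day 2 and 155 CPM at day 0 in shBrf1. Clock genes had 1 higher and 7 lower of 14, in the same numbers as in control, with Per1 at 53.5 CPM at day 2 and 22.7 CPM at day 0 and Dbp at 3.16 CPM at day 2 and 19.6 CPM at day 0 in shBrf1. Noncoding hosts of snoRNAs had 6 higher and 1 lower of 11 with a median of 1.11, which spike-in scaling turned to -0.06.

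The response in shBrf1 was set beside that in control as the difference of the 2 log2 ratios. Of 12672 genes at 1 CPM in 1 of the 4 libraries, 323 (2.55%) were higher by 1 or more in shBrf1 and 622 (4.91%) lower by 1 or more. The 10 named genes with the largest positive differences were Rmrp (5.32), Rpph1 (4.88), Rn45s (4.31), Cfd (3.96), Retn (3.28), Lars2 (3.06), Fabp4 (2.99), Cidec (2.98), Agpat9 (2.64) and Adipoq (2.57). Among them, Cfd, Retn, Fabp4, Cidec, Agpat9 and Adipoq are adipocyte or triglyceride genes. All were picked on the difference itself, and the share of such genes among all genes was not taken. Rmrp, Rpph1, Rn45s and Lars2 had their highest counts in the 1 library with the highest ribosomal RNA share, and a link to that share was not tested. The list of adipocyte genes had 16 of 19 members with a larger ratio in shBrf1, proteasome subunits 25 of 25, oxidative phosphorylation 28 of 30, ribosome biogenesis 23 of 27 and tRNA processing 22 of 27. Under spike-in scaling these counts were 15 for the adipocyte list, 10 for the proteasome, 10 for oxidative phosphorylation, 11 for ribosome biogenesis and 7 for tRNA processing. The median difference from control over all genes at a mean of 1 CPM was -0.04 on the TMM scale and -0.54 under spike-in scaling. The share of all genes with a larger ratio in shBrf1 was not taken on either scale, so these counts have no background beside them. Fibroblast markers had 0 of 11 with a larger ratio on both scales, and basement membrane genes 1 of 14, or 0 under spike-in scaling.

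At the other end, Il1rn, the antagonist of the interleukin 1 receptor, had 3.74 CPM at day 2 against 0.0903 CPM at day 0 in shBrf1 and 31.8 CPM at day 2 against 0.115 CPM at day 0 in control, so it was higher at day 2 in both and far less so in shBrf1. Il31ra, a cytokine receptor chain, had 18 counts at day 2 against 11 at day 0 in shBrf1 and 270 counts at day 2 against 30 at day 0 in control. Avpr1a, a vasopressin receptor, had 71 counts at day 2 against 56 at day 0 in shBrf1 and 160 counts at day 2 against 14 at day 0 in control. Gdpd2, Glis3 and Soga2 had opposite signs in the 2 lines, and P4ha3 and Srcap had a ratio near 1 in control. Gdpd2, a glycerophosphodiesterase, had 21.8 CPM at day 2 against 37.0 CPM at day 0 in shBrf1 and 82.2 CPM at day 2 against 21.6 CPM at day 0 in control. P4ha3, a collagen prolyl hydroxylase subunit, had 8.56 CPM at day 2 against 40.4 CPM at day 0 in shBrf1 and 24.6 CPM at day 2 against 25.2 CPM at day 0 in control. Srcap, a chromatin remodeller, had 1.62 CPM at day 2 against 11.6 CPM at day 0 in shBrf1 and 11.3 CPM at day 2 against 11.7 CPM at day 0 in control. Glis3, a zinc finger factor, had 2.66 CPM at day 2 against 6.80 CPM at day 0 in shBrf1, 2.56-fold lower (1.94 to 3.40), and 21.3 CPM at day 2 against 10.1 CPM at day 0 in control, 2.12-fold higher (1.86 to 2.42). It was the named gene of 2 that passed the size rule in opposite directions, the other being AK140265. Soga2 had 2.81 CPM at day 2 against 5.02 CPM at day 0 in shBrf1 and 15.2 CPM at day 2 against 5.34 CPM at day 0 in control. Piezo2, an ion channel opened by membrane stretch, had 1.16 CPM at day 2 against 20.6 CPM at day 0 in shBrf1 and 10.1 CPM at day 2 against 19.7 CPM at day 0 in control. Raver1-fdx1l, a row that joins 2 neighbouring genes, had 7 counts at day 2 against 399 at day 0 in shBrf1 and 228 counts at day 2 against 528 at day 0 in control, and its reads can be shared with both.

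The log2 ratio ran with transcript length. Over 11669 genes with a length (96.14% of the 12137), the Spearman correlation across genes was -0.33 in shBrf1, -0.07 in shMaf1, -0.28 with ML-60218 and -0.25 in control. Of 4 equal groups by length, the shortest, up to 2263 bases, had a median of 0.42 in shBrf1, and the longest, from 4874 bases, -0.46. In control these medians were 0.29 and -0.20. The 3′ bias score, 0.36 in shBrf1 at day 2, moved with it, as did the ratio of reads in 3′ over 5′ untranslated regions, at 9.56 in shBrf1 at day 2 against 5.04 at day 0. With the length trend taken out of each response, 1706 genes were higher and 1894 lower in shBrf1, of which 1461 and 1703 were also counted before. The difference from control then passed 1 for 342 genes higher and 467 lower. In shBrf1 the median of oxidative phosphorylation went from 1.05 to 0.60 and that of proteasome subunits from 1.03 to 0.68. Cytosolic ribosomal proteins went from 0.59 to 0.21, replication-dependent histones from 2.19 to 1.57 and collagens from -0.61 to -0.23. The adipocyte and interferon medians changed less for their size, to 4.56 and -3.92.

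The fibroblast markers that define these cells were present, with a summed level of 13819.8 CPM at day 2 and 34689 CPM at day 0 in shBrf1 and all 11 measured; 1 was higher and 4 were lower, against 3 and 3 in control. Endothelial and epithelial markers were near 0 in shBrf1. The 6 endothelial genes summed to 0.463 CPM at day 2 and 2.80 CPM at day 0, and 3 at day 2 and 1 at day 0 had no count. The 6 epithelial genes summed to 0.347 CPM at day 2 and 0.331 CPM at day 0, and 4 and 3 had none. The 7 macrophage genes with a row summed to 8.87 CPM at day 2 and 34.00 CPM at day 0 in shBrf1, with 2 at 0 on each day. In it the lysozyme gene Lyz2 had 0.694 CPM at day 2 and 23.4 CPM at day 0 in shBrf1 and 0.573 CPM at day 2 and 7.01 CPM at day 0 in control. Cd68 had 1.16 CPM at day 2 and 1.38 CPM at day 0 in shBrf1. Skeletal muscle markers summed to 7.55 CPM at day 2 and 8.39 CPM at day 0, of which Des had 7.21 CPM at day 2 and 8.24 CPM at day 0, and bone and cartilage markers to 32.5 CPM at day 2 and 59.4 CPM at day 0, with Runx2, a bone factor also found in preadipocytes, at 10.6 CPM at day 2 and 55.3 CPM at day 0 and Alpl, alkaline phosphatase, at 18.1 CPM at day 2 and 0.331 CPM at day 0. The 3 measured bone and cartilage markers had a median log2 ratio of 0.80 in shBrf1, which turned to -0.22 under spike-in scaling.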

How the data were processed

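The authors deposited tables of expected (estimated) counts per gene, whole numbers and not scaled, with STAR 2.4 and build mm10 named per the submitters' processing notes; the counter was not given in the sources used here. Per the deposited quality tables, ERCC and aligned reads are counts, ribosomal RNA and duplicates are a percent of reads, 3′ bias is a score, and reads on untranslated regions are estimated counts. Libraries came from a poly(A) selecting stranded kit, per the labels' protocols, and held 29035505 to 31759559 counts. Whether counting used strand is not stated, so overlapping, antisense and near-identical genes are less certain.

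Libraries were joined by gene and scaled by TMM in edgeR 4.0.16 (R 4.3.3), for CPM only. With 1 library per group no model was fitted. Log2 ratios used a pseudocount of 0.5 CPM, and calls a 2-fold change with 1 CPM in the higher library. Intervals are 95% Clopper-Pearson intervals on counts, and a count of 0 was set to 3. Transcript lengths came from the GENCODE M21 annotation and promoters from RefSeq (GRCm38.p6). The ratio was tested on simulated counts in which a small set of genes changed, as many up as down. The simulation held no shift of most genes, ribosomal RNA excess or length trend, so it does not cover those. The alternatives tried were scaling by library totals, by DESeq2 1.42.0 size factors or by ERCC reads, pseudocounts of 1 and 0.1, floors of 0 and 5 CPM, list members at 5 CPM, and removal of the length trend.

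Named genes were the 12 highest and 12 lowest at 5 CPM, the 10 largest differences from control each way, and up to 5 per list. Further list members were named for their role after values were seen. The values of 2 list members are not reported here, though the list counts and medians include them. Members and lists were chosen with earlier results of these data known.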

Additional observations from a re-analysis of the deposited data

Results flagged for a closer look

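Glis3 passed 2-fold in opposite directions in the 2 lines: its log2 ratio of day 2 over day 0 was -1.21 in shBrf1 and 1.05 in control. The difference between the lines was not tested, and its day 2 level in shBrf1 rests on 2.66 CPM.

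The ribosomal RNA share and the 3′ bias score of the deposited quality tables entered no comparison of genes. Ribosomal RNA took 7.8% of the reads of the shBrf1 day 2 library, against 0.56% at day 0 in shBrf1 and 0.89% at day 2 in control. The 3′ bias score of the same library was 0.36, against 0.07 at day 0 in shBrf1 and 0.15 at day 2 in control.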

How the results depend on the processing

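The counts of higher and lower genes in shBrf1, and of genes whose ratio differed from control by 1 or more, stayed within 1.5 times under 7 of the 8 alternatives that apply to them. Under ERCC spike-in scaling 386 genes were higher and 7283 lower in shBrf1, and the difference from control passed 1 for 120 genes higher and 2289 lower, since this scaling moves the median of all genes. It turned the median log2 ratio of oxidative phosphorylation to -0.16, of proteasome subunits to -0.19 and of snoRNA hosts to -0.059, and the log2 ratio of Col4a1 to -0.12, of Polr1d to -0.18 and of Polr3k to -0.11. No other called log2 ratio of a gene named in the text, and no other list median past 2-fold, changed sign under any alternative. No paired analysis was possible because each group held 1 library and the labels carry no replicate numbers, and for the same reason no library could be left out. Depth limits low genes: Rpph1 rested on 1 count at day 0 in shBrf1.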
